A study of Homo sapiens with 4 samples.

Results

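Gene expression was compared between Jurkat cells given phytohemagglutinin (PHA) together with JQ1 and Jurkat cells given PHA together with DMSO, the solvent. Jurkat is an established human T lymphoblast line. JQ1 was given at 0.5 μM. PHA was given at 150 ng/ml to both groups, and both were collected at 24 h. Each condition is 1 RNA-seq library, so 2 of the 4 libraries of the series enter the comparison, with no replicate, no test and no p-value. The other 2 libraries, DMSO and JQ1 (0.5 μM) without PHA at 24 h, were used for the level filter and for side-by-side values. Of 50868 genes in the files, 11503 had a mean of at least 1 FPKM over the 4 libraries and were kept. FPKM is the number of fragments per kilobase of gene length, scaled to the library total. The log2 ratio given throughout is that of FPKM + 0.1 in JQ1+PHA over DMSO+PHA. A gene was called higher or lower when this ratio passed 2-fold, and "rose" and "fell" are used for called genes alone.

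Proteins of the bromodomain and extra-terminal (BET) family bind acetylated lysines on histones and help RNA polymerase II to leave the promoter, partly through the kinase P-TEFb. JQ1 occupies the acetyl-lysine pocket of their bromodomains and releases them from chromatin. PHA is a plant lectin that cross-links T-cell surface glycoproteins, the T-cell receptor (TCR) among them, and sets off calcium, MAP kinase and NF-κB signalling. Jurkat cells come from a T-cell acute leukaemia and retain many features of immature thymocytes.

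Between 18620954 and 19685401 reads were counted on genes per library, and mitochondrial genes took from 6.27% to 7.07% of them. The cells matched their label: 12 of 12 T-cell markers passed the filter, and their summed level was 1235 FPKM in DMSO+PHA and 807 in JQ1+PHA. B-cell markers summed to 10.5 and 3.4 FPKM, and myeloid markers to 0.796 and 0.451. Nothing in the sources used here says whether the libraries came from separate cultures. In bulk RNA, fewer cells expressing a gene and less RNA of it per cell cannot be told apart.

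More genes were lower than higher with JQ1 in PHA-stimulated cells. Of the 11503 genes, 424 rose (3.69%) and 920 fell (8.0%) by at least 2-fold. The counting interval of the ratio excluded 0 for 412 and 902 of these, which covers counting error only, since read counts without molecular identifiers are not independent molecules. Falls were also deeper. At 4-fold, 60 genes were higher and 199 lower, and at 8-fold the numbers were 11 and 66. The median gene moved by −0.02, and 5577 genes lay above 0 against 5923 below. The genes that fell had a median of 4.84 FPKM in DMSO+PHA and 1.49 in JQ1+PHA. The genes that rose had medians of 1.51 and 4.42 FPKM. In counts, the genes that rose grew from 1.4% to 3.56% of the library and those that fell shrank from 6.55% to 2.4%. The choice of genes by their ratio fixes the direction of these medians and shares, which test nothing.

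**Figure D1:**
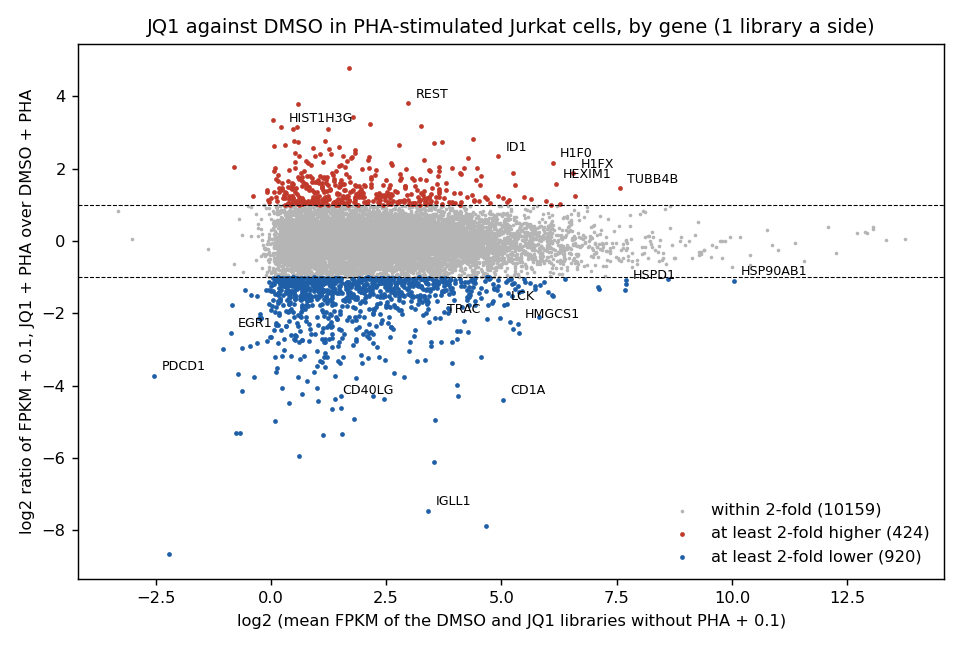
Each point is 1 of 11503 genes. The horizontal axis is the mean FPKM of the DMSO and JQ1 libraries without PHA, plus 0.1, on a log scale. The vertical axis is the log2 ratio of FPKM + 0.1 in JQ1+PHA over DMSO+PHA. The 424 genes above and the 920 below 2-fold are coloured, and 66 genes lie more than 8-fold below 0 against 11 above.

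Among 60 gene lists covering signalling, surface molecules, lineage, growth, metabolism and protein homeostasis, the highest shares of lower genes were in surface molecules and genes of immature lymphoid cells: 85.7% of activation and costimulatory molecules, 71.4% of inhibitory receptors and 61.9% of immature lymphoid genes. GIMAP GTPases (50%), amino acid transporters (46.7%), ribosome biogenesis (36.5%) and both TCR lists (34.4% each) came next. Histone genes were the list with the most rises, with 13 of 20 higher. Of 82 histone, 33 activation and 23 inhibitory genes, 20, 14 and 7 passed the level filter. Some of them passed only through the libraries where they were high, so these shares are partly set by the filter. The lists for splicing factors, Mediator, BET proteins, mitochondrial carriers and the mitochondrial genome held no gene past 2-fold.

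**Figure D2:**
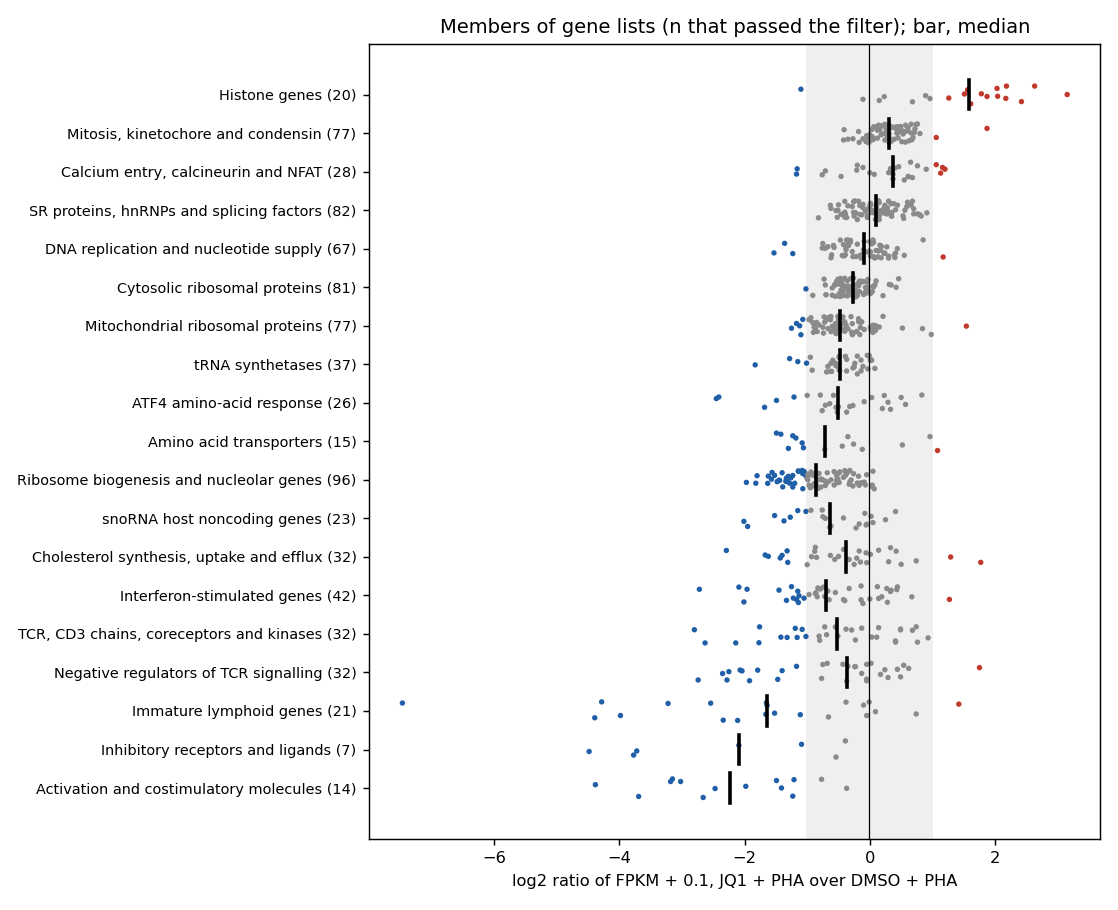
Each point is a member of a gene list that passed the filter, placed by its log2 ratio in JQ1+PHA over DMSO+PHA, and each bar is the list's median. Histone genes lie to the right of 0 with a median of 1.58, while activation and costimulatory molecules lie to the left with a median of −2.22.

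Of 33 listed T-cell activation and costimulatory molecules, 14 passed the level filter, and 12 of these were lower and none higher. Their median log2 ratio was −2.22. Some, such as CD27, passed only through a high DMSO+PHA library, which by itself favours a fall. CD40LG, the ligand by which helper T cells license B cells and dendritic cells, stood at 47.2 FPKM in DMSO+PHA and at 2.18 in JQ1+PHA, 21.7-fold lower. Its level without PHA was 4.4 FPKM in DMSO and 0.662 in JQ1, so JQ1+PHA lay below even unstimulated DMSO. CD69, an early activation antigen that retains lymphocytes in tissue, read 1.05, 0.766, 20.4 and 3.14 FPKM in DMSO, JQ1, DMSO+PHA and JQ1+PHA. CD69 was thus 6.49-fold lower with PHA (log2 −2.66), while the resting pair differed by −0.41. The difference between these pairs was −2.24 on the log2 scale of count shares, with a counting interval from −2.81 to −1.67. CD27, a costimulatory receptor of the TNF receptor family, went from 3.89 to 0.209 FPKM, 18.6-fold lower on 118 and 6 counts. CD84, an adhesion receptor of the SLAM family, fell from 11.9 to 1.25 FPKM (−3.15), and the TNF receptor members TNFRSF8 (CD30) and TNFRSF4 (OX40) fell by 3.18 and by 3.02. The last pair stood at similar levels in both DMSO libraries, 2.97 and 2.94 FPKM for TNFRSF8 and 2.08 and 2.3 for TNFRSF4. Without PHA, 7 of the 14 were lower against a resting background of 8.65% of all genes lower and 5.22% higher.

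Of 23 listed inhibitory receptors and ligands, 7 passed the level filter. Among these 7, 5 were lower and none higher, with a median of −2.09. PDCD1, which encodes PD-1, a receptor that restrains TCR and CD28 signalling, read 0.13, 0.0155, 5.53 and 0.328 FPKM in the 4 libraries in the order above. PDCD1 was kept only through the DMSO+PHA library, so the filter favoured its fall. CD244 (2B4), a SLAM receptor, fell from 235 counts to 3, a log2 ratio of count shares of −6.21 with an interval from −8.50 to −4.65. LGALS9, the galectin that binds TIM-3, fell from 3.37 to 0.713 FPKM, and CD96, a nectin receptor, from 4.98 to 2.29. LAIR1 and PVR did not pass 2-fold, at −0.54 and −0.39. PVRIG dropped from 529 to 33 counts, but it overlaps GATS, which went from 267 to 744. Their sum had a log2 ratio of 0.05, so the value of PVRIG alone is uncertain. PVRIG is among the 5 members counted as lower, so the list's share of lower genes and its median include this uncertain value.

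The TCR complex and its proximal kinases and adaptors were lower in 11 of 32 measured members and higher in none, with a median of −0.53. CD2, an adhesion receptor that lowers the threshold for TCR signalling, fell from 28.2 to 3.96 FPKM (−2.80). GRAP2 (GADS), the adaptor that ties SLP-76 to LAT, fell from 13.7 to 2.13 (−2.63). The TCR alpha constant gene TRAC read 16.7, 8.56, 221 and 50.1 FPKM in DMSO, JQ1, DMSO+PHA and JQ1+PHA. TRAC in JQ1+PHA was 4.42-fold below DMSO+PHA and still above both libraries without PHA. TRAV8-4, a TCR alpha variable segment, had nearly the same course at 33.8, 17.6, 362 and 81.1 FPKM, 4.46-fold lower. The beta constant genes did not pass 2-fold, TRBC1 reading 374 and 383 FPKM with PHA and TRBC2 293 and 206. TRBC1 and TRBC2 are near-identical in sequence, so how reads divided between them is uncertain. Of the CD3 chains, CD3E passed 2-fold (62 to 27.7 FPKM) and CD247, the zeta chain, just did (9.51 to 4.63), whereas CD3D and CD3G stood at −0.55 and −0.69. The kinases LCK (47.7 to 13.9) and ZAP70 (35.2 to 16.7) fell. LCP2, which encodes SLP-76, stood apart, at 5.64 and 5.53 FPKM in DMSO and JQ1 but 26.1 and 7.63 with PHA. CD28, the main costimulatory receptor, had a like course at 6.7, 5.36, 19.1 and 7.11 FPKM.

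In a list written by hand as negative regulators of TCR signalling, 11 of 32 were also lower and 1 was higher (median −0.36). The lower members include the adaptors TRAT1 and SH2D2A, and the role of each member was not tested. The adaptors DOK2 (5.01 to 0.666 FPKM), SLA (17.6 to 3.54) and SLA2 (19.4 to 4) fell by 2.74, by 2.28 and by 2.25. The phosphatase PTPN22 fell from 7.08 to 1.61 FPKM, and CD5, a receptor whose level follows TCR signal strength, from 24.5 to 5.9. UBASH3B, a phosphatase that acts on TCR-associated kinases, read 5.45, 3.76, 15.9 and 4.13 FPKM across the libraries, so only DMSO+PHA was high. PAG1, the membrane adaptor that recruits the inhibitory kinase CSK, was the 1 member that rose, from 2.96 to 10.2 FPKM (1.75), with 3.8 and 10.1 in the libraries without PHA.

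**Figure D3:**
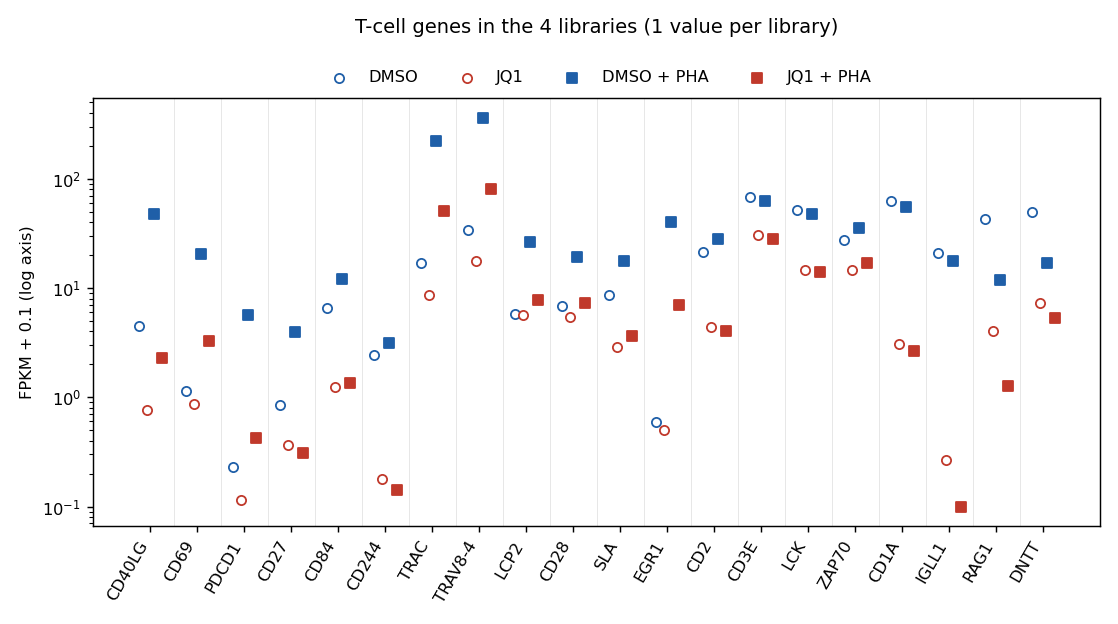
FPKM + 0.1 on a log axis of 20 T-cell genes in the 4 libraries, 1 value per library. For CD69, EGR1, TRAC and LCP2 the DMSO+PHA library stands above the other 3, whereas for CD1A, IGLL1, CD2 and LCK both JQ1 libraries stand below both DMSO libraries.

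Genes typical of immature lymphoid cells were lower in 13 of 21 measured members and higher in 1, with a median of −1.64. IGLL1, a surrogate light chain of the pre-B-cell receptor, had 625 counts in DMSO+PHA and 0 in JQ1+PHA, at least 197-fold lower when 3 counts are taken for the latter. CD1A, CD1B, CD1C and CD1E, lipid-presenting molecules of cortical thymocytes, fell from 55.2 to 2.54, from 57.3 to 9.73, from 42.2 to 2.58 and from 70.7 to 16.3 FPKM. CHI3L2, a chitinase-like protein, fell from 58 to 2.89 FPKM (−4.28). The recombinase genes RAG1 (11.8 to 1.18 FPKM) and RAG2 (4.35 to 1.33) fell by 3.22 and by 1.64. DNTT, which adds non-templated bases at V(D)J joints, fell from 16.8 to 5.25 FPKM. Both of the RAG genes and DNTT were already lower in DMSO+PHA than in DMSO, where they stood at 42.9, 11.3 and 49 FPKM, so JQ1+PHA held the lowest value of each. ARPP21 was the exception, at 3.46 and 9.4 FPKM (1.42). TRGC2, a TCR gamma constant gene, read 3.15, 4.47, 20.1 and 6.33 FPKM in DMSO, JQ1, DMSO+PHA and JQ1+PHA, so JQ1 went with a lower level in the stimulated pair only, and the resting pair differed by 0.49.

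Several of these lists are rich in promoters with few CpG dinucleotides. Promoter windows from 250 bases before to 50 after the start were taken from RefSeq (GRCh38.p14) for 7847 of the 9489 kept protein-coding genes, and 7.68% of them held fewer than 10 CG pairs. The share was 54.2% of 24 genes for the TCR list, 64.7% of 17 for immature lymphoid genes, 71.4% of 7 for inhibitory receptors and 6 of 6 for the GIMAP family. It was not shared by every surface list: of homing molecules and integrins, with a window for 62.5% of the measured genes, 1 of 15 (6.67%) had fewer than 10. The windows of CD2 (chr1:116754180-116754479, plus strand) and CD27 (chr12:6443642-6443941, plus strand) are shown as examples, with each CG pair in capitals. The first holds 4 and the second 3.
CD2: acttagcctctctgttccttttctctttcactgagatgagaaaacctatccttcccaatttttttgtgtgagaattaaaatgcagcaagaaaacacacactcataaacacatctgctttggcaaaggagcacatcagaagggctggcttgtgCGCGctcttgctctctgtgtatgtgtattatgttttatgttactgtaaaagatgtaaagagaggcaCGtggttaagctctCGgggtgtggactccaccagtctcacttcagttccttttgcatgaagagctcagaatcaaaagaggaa
CD27: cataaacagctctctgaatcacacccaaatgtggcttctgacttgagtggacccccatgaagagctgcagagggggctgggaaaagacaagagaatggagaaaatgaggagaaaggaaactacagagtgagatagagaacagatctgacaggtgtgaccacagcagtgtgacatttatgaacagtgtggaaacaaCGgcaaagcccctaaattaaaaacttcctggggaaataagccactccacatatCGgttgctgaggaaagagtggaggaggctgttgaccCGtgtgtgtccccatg

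Across all promoter windows, the share of genes that fell dropped as CpG rose. With 0 to 4 CG pairs, 21.7% of 277 genes were lower. With 5 to 9 pairs it was 16.6% of 326, with 10 to 19 pairs 8.89% of 1248, with 20 to 29 pairs 6.18% of 2750 and with 30 or more 5.88% of 3246. The share that rose stayed between 2.45% and 3.97% over the same classes. Median FPKM without PHA was 3.8 in the class with the fewest CG pairs and 5.91 in the class with the most. Level moved with the call as well: in the lowest of 10 equal bins by FPKM without PHA, 15.0% of genes fell and 6.34% rose, against 4.95% and 1.74% in the highest bin. The lowest bin runs from 0 to 1.42 FPKM and holds genes kept only through a PHA library, such as PDCD1. The filter thus bears on its shares. In 5 bins of protein-coding genes by the length implied from counts and FPKM, 13.5% of the shortest fell and 4.0% of the longest. The part of level and length in the CpG trend was not tested.

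**Figure D4:**
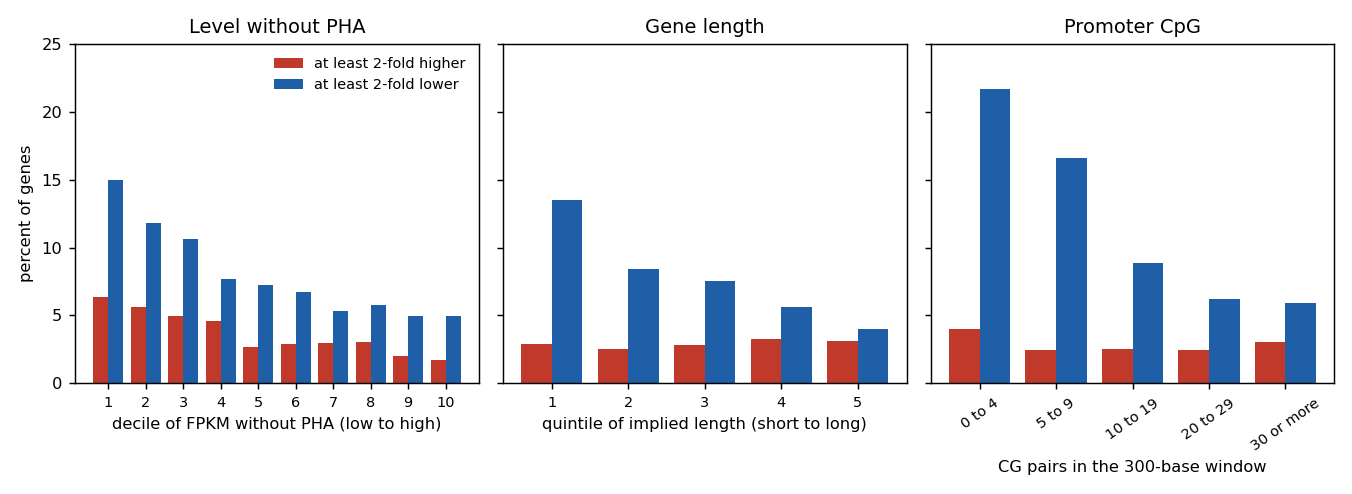
Percent of genes at least 2-fold higher (red) or lower (blue) in JQ1+PHA over DMSO+PHA, by 10 bins of FPKM without PHA, by 5 bins of implied length of protein-coding genes, and by the number of CG pairs in the 300-base promoter window. The blue bars are highest at the left of each panel and go from 21.7% to 5.88% in the CpG panel.

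Interferon-stimulated genes also fell, 13 of 42 measured members being lower and 1 higher (median −0.70). GBP1, a guanylate-binding protein of cell-autonomous defence, went from 7.42 to 1.04 FPKM, and XAF1, a pro-apoptotic interferon target, from 8.43 to 1.91. OAS3, which makes the activator of RNase L, fell from 4.39 to 1.02 FPKM, and BST2 (tetherin) from 65.9 to 30. STAT2, the transcription factor that carries type I interferon signals, rose instead, from 3.57 to 8.74 FPKM. MHC class I genes had 2 of 23 lower (8.7%) and 1 higher (4.35%), close to the 8.0% and 3.69% of all genes. The gene that rose was B2M, the shared light chain, from 18.5 to 39.6 FPKM. HLA-B and HLA-C stayed within 2-fold, at 0.17 and 0.38. Reads of these closely similar genes may be split between them.

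Homing and adhesion molecules were lower in 6 of 24 and higher in none. PECAM1, an adhesion receptor of endothelium and leukocytes, fell from 19.1 to 2.22 FPKM (−3.05). The integrin ITGA4 fell from 68.4 to 24.3 FPKM. The GIMAP GTPases, which promote lymphocyte survival, lay below 0 in all 6 measured members, and GIMAP4 fell the most, from 4.81 to 0.616 FPKM. GIMAP2 and GIMAP5 just passed 2-fold at −1.08 and −1.01.

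Cytokine receptors, JAKs, STATs and SOCS proteins were mixed, with 4 of 30 higher (13.3%) and 3 lower (10%), and a median of 0.08. Of all genes, 3.69% were higher and 8.0% lower. STAT4, which relays IL-12, rose from 0.882 to 4.93 FPKM, JAK1 from 25.4 to 56.3 and the kinase PIM1 from 1.33 to 4.51. Of the receptors, IL9R fell from 6.79 to 1.5 FPKM and IL7R from 1.66 to 0.55, while IL2RG stood at −0.59 and IL6ST at 0.83. Of 4 cytokine genes that passed the filter, IL32 fell from 3.72 to 0.519 FPKM and the others stayed within 2-fold.

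Lists of signalling below the TCR were mixed. In the calcium, calcineurin and NFAT list 4 of 28 rose (14.3%) and 2 fell (7.14%), with a median of 0.37. Of all genes, 3.69% rose and 8.0% fell. CAMK4, a kinase switched on by calcium, went from 14.8 to 33.2 FPKM. NFAT5, the NFAT member that responds to osmotic stress, read 1.69, 1.52, 2.13 and 4.56 FPKM in DMSO, JQ1, DMSO+PHA and JQ1+PHA, so JQ1+PHA stood apart. The other NFAT genes did not rise. NFATC2 stood at −0.76 and NFATC3 at 0.00. NFATC1 (1.78 to 0.689 FPKM with PHA) and NFATC4 (0.553 to 0.125) did not pass the level filter and had ratios of −1.25 and −1.54. The RAS and MAPK cascade had 2 of 35 lower (5.71%) and none higher. The PI3K, AKT and mTOR list had 3 of 30 higher (10%) and 1 lower (3.33%). In the NF-κB list 1 of 26 was lower (3.85%), TRAF5 (6.16 to 2.09 FPKM). These lower shares were under the 8.0% of all genes. DUSP2, a nuclear phosphatase that switches off ERK, fell from 11 to 2.49 FPKM.

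Early response genes split. EGR1, a zinc finger factor induced by ERK signalling, read 0.491, 0.405, 39.9 and 6.85 FPKM in the 4 libraries in the same order. The EGR1 ratio was −2.53 with PHA and −0.23 without, and the difference on the scale of count shares was −2.26 with a counting interval from −3.05 to −1.48. Its corepressor NAB2 fell from 5.24 to 1.9 FPKM. BTG1, an antiproliferative gene of quiescent lymphocytes, rose from 4.18 to 12.2, and TIPARP and PPP1R15A rose by 1.15 and by 1.04 on the log2 scale. Of 9 AP-1 family genes, BATF3 (3.91 to 0.667 FPKM), BATF (2.96 to 0.696) and MAFG (3.73 to 1.46) fell, and JUN rose from 1.69 to 4.11. BATF in JQ1+PHA had 24 counts.

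Ribosome biogenesis formed the broadest fall. Of 96 measured nucleolar and assembly factors, 35 were lower, none was higher and 92 lay below 0, with a median of −0.85. RRS1, an assembly factor of the large subunit, fell from 17.9 to 4.5 FPKM (−1.97) and NOP16 from 5.76 to 1.56 (−1.82). BYSL, needed to mature the small subunit, fell from 9.95 to 2.79 FPKM (−1.80). DDX21, a nucleolar RNA helicase, fell from 101 to 36.1 FPKM, and NPM1, a histone chaperone of the nucleolus, from 246 to 117. NPM1 has many pseudogenes, and 1 of them, NPM1P27, was called at 494 and 239 FPKM, so its reads and those of NPM1 may be shared. Without PHA, 47 of the 96 were lower and none was higher. The cytosolic ribosomal proteins themselves differed less, 1 of 81 being lower with a median of −0.27, and 70 of the 81 lay below 0.

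Of 82 ribosome biogenesis promoters with a window, 29 (35.4%) held the letters CACGTG, the E-box that MYC and MAX can bind, against 10.8% of all windows, and none had fewer than 10 CG pairs. Over all windows, 12% of genes with CACGTG were lower and 6.91% of those without. A match says only that the letters are there. The BYSL window (chr6:41921249-41921548, plus strand) is shown with its CACGTG in capitals.
BYSL: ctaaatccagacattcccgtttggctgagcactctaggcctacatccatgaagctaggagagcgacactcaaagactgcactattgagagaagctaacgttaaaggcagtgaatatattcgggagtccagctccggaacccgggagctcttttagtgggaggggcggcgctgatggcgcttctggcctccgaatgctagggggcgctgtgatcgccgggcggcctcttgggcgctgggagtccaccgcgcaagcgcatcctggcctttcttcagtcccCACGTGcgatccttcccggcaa

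MYC, which drives growth genes, rose from 0.918 to 2.72 FPKM (1.47). MXD3, which competes with MYC for its partner MAX, rose from 0.617 to 1.91. At a pseudocount of 1, neither gene passed 2-fold. The other 11 genes of the MYC, MAX and MXD network stayed within 2-fold, and the median was 0.29.

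Other growth and biosynthesis lists were uneven. Amino acid transporters were lower in 7 of 15 and higher in 1, with SLC7A1, the arginine carrier, from 33 to 11.6 FPKM and SLC7A5, which imports leucine, from 61.9 to 23. Small nucleolar RNA host genes were lower in 7 of 23, SNHG4 falling from 8.41 to 2.02 FPKM. Among targets of ATF4, the factor of the amino acid response, 5 of 26 were lower and none higher. MTHFD1L, a mitochondrial folate enzyme, went from 12.2 to 2.16 FPKM, PYCR1, which makes proline, from 2.89 to 0.463, and PSAT1, of serine synthesis, from 66.6 to 28.8. tRNA synthetases were lower in 4 of 37, led by YARS2 at −1.83. That share of 10.8% was close to the 8.0% of all genes lower. In purine synthesis, PFAS (11 to 3.75 FPKM), ATIC (40.5 to 15.7) and PAICS (37.4 to 15.8) were the 3 genes that fell in the list of 67 replication and nucleotide genes, a share of 4.48%, under that of all genes. RRM2, a subunit of ribonucleotide reductase, was the 1 that rose, from 30.9 to 69.7 FPKM.

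Cholesterol genes were lower in 7 of 32 and higher in 2. HMGCS1, at the entry of the mevalonate pathway, read 60.5, 21, 91 and 18.5 FPKM in the 4 libraries, 4.92-fold lower with PHA. DHCR7 (12.4 to 3.83) and FDPS (26.9 to 10.1) fell too. SQLE, which oxidises squalene, missed 2-fold at −0.56. MYLIP, a ubiquitin ligase that limits cholesterol uptake, rose from 0.756 to 2.81 FPKM. In fatty acid synthesis, ELOVL6 (2.87 to 0.454), FASN (17.4 to 5.41) and ACACA (8.5 to 3.83) fell, and the other 18 of 21 did not pass.

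Chaperones had 6 of 68 lower (8.82%) and 1 higher, a share close to the 8.0% of all genes lower. The list did not stand apart, and the following members are given for their high level. HSP90AB1 went from 1281 to 599 FPKM, HSPD1 from 265 to 116, HSPA5 (BiP) from 195 to 80.2 and HSPE1, the partner of HSPD1 in mitochondria, from 43.2 to 15.1. The cochaperone BAG3 just passed 2-fold upward, 11.2 to 22.5 FPKM. Of 31 genes of the unfolded protein response, 6 fell, with CALR (calreticulin) from 206 to 82.7 FPKM and the transcription factor XBP1 from 4.97 to 1.8.

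Most histone genes that passed the level filter rose. Of 82 in the files 20 passed, and 13 of these were higher and 1 lower. Their median was 1.58 where all genes had −0.02. HIST1H3G, HIST2H4A, HIST1H2AG, HIST1H2AC and HIST2H2BE were under 1 FPKM in both DMSO libraries and passed through the JQ1 libraries. The filter favours a rise in such genes, so the share and the median are partly set by it. The linker histones H1F0, typical of non-dividing cells, and H1FX went from 22.4 to 101 and from 37.7 to 138 FPKM. H2AFX, the variant phosphorylated at DNA breaks, rose from 11.8 to 34.9 FPKM. Several genes of the histone clusters rose from low levels. HIST1H2AG read 0.614, 3.39, 0.655 and 3.94 FPKM in DMSO, JQ1, DMSO+PHA and JQ1+PHA, and HIST2H2BE 0.343, 2.35, 0.616 and 2.83. In both, the JQ1 libraries lay together above the DMSO libraries. HIST1H3G went from 6 counts to 86, and HIST2H4A, which has a near-identical neighbouring copy, from 18 to 141. HIST1H2BK fell from 8.27 to 3.81 FPKM on 62 and 27 counts, and without PHA it stood at 6.28 and 7.87. Most cluster histone mRNAs lack a poly(A) tail, so the way RNA was selected bears on their level; its part in the ratio was not tested.

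Histone promoters carried the TATA and CCAAT boxes for which they are known. Of 19 with a window, 12 held TATAAA and 17 CCAAT on either strand, against 4.83% and 38.4% of all windows. Over all windows, 5.28% of genes with TATAAA rose and 2.65% of those without, and 9.23% and 7.38% fell. Histone genes are among those with the letters. HIST1H2AG (H2AC11 in RefSeq, chr6:27132793-27133092, plus strand) and HIST2H2BE (H2BC21, chr1:149886633-149886932, minus strand) are shown because they were among the histone genes with the larger rises. Both boxes are in capitals, read on either strand, and where matches overlap they form 1 run.
HIST1H2AG: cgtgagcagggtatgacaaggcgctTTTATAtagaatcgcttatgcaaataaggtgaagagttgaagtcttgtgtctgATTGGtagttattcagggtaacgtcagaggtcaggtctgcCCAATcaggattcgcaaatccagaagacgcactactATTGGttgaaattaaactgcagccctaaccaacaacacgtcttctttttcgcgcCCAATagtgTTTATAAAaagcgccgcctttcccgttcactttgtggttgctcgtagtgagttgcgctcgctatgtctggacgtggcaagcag
HIST2H2BE: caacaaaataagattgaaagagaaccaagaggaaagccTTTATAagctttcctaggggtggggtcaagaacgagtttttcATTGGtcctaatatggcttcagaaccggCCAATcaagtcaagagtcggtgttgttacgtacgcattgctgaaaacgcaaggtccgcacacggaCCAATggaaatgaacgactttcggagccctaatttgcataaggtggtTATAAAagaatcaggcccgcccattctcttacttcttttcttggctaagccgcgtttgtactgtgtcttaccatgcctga

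Other rises came from small groups of regulators. The ID proteins, which block E-protein transcription factors, rose together in the list of T-lineage factors: ID1 from 10.2 to 51.8 FPKM, ID2 from 0.733 to 5.53 and ID3 from 22.4 to 65.7. In the libraries without PHA, ID1 stood at 10.5 and 50.2 and ID3 at 17 and 61.3. FOXO1, a factor of quiescence, rose from 1.09 to 3.09 FPKM. RUNX2 (3.9 to 0.683) and HIVEP2 (12.5 to 3.8) fell, whereas GATA3 was flat in the stimulated pair at 9.33 and 9.4 FPKM after 4.4 and 8.21 without PHA. The list as a whole had 4 of 39 higher (10.3%) and 3 lower (7.69%), beside 3.69% and 8.0% of all genes. Its share of lower genes was close to that of all genes.

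Few cell-cycle genes passed 2-fold, though rises among G1 genes were above the share of all genes. CCND2 (cyclin D2) fell from 3.48 to 0.701 FPKM, while the CDK inhibitors CDKN1B (p27) and CDKN2D (p19) rose from 14.8 to 34.7 and from 3.99 to 13.2. CDK6, the abundant G1 kinase of T cells, held 325 and 353 FPKM. In all, 3 of 28 G1 genes rose (10.7%) and 1 fell (3.57%), beside 3.69% and 8.0% of all genes. Of 77 mitosis genes 2 rose (2.6%), none fell, and the median was 0.31, CKAP2 going from 15 to 55.4 FPKM. TUBB4B, a beta tubulin, was among the most abundant genes that rose, from 97.2 to 269 FPKM. Of p53 target genes 2 of 20 rose (10%) and none fell, with TP53INP1 from 2.14 to 7.83 FPKM.

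In the BCL2 family BMF, a BH3-only protein that promotes apoptosis, rose from 0.277 to 2.31 FPKM on 65 and 512 counts. BCL2 itself fell from 3.34 to 1.28 FPKM and BIK from 11.3 to 5.35, and the other 14 of 17 stayed within 2-fold. The shares were 5.88% higher and 11.8% lower, beside 3.69% and 8.0% of all genes. MLKL, the executor of necroptosis, fell from 3.83 to 0.469 FPKM and was the only 1 of 26 death receptor and caspase genes past 2-fold.

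Few components of the transcription apparatus passed 2-fold. Of the BET genes, BRD2 and BRD3 stood at 0.90 and 0.51, above 0 but not past 2-fold. HEXIM1, which inhibits P-TEFb, rose from 34.6 to 104 FPKM, the 1 call among 26 P-TEFb and elongation genes. POLR2A, the largest subunit of RNA polymerase II, rose from 42.5 to 91.6 FPKM, whereas POLR1B of polymerase I and POLR3G of polymerase III fell by 1.32 and by 1.48. KAT2B, an acetyltransferase, rose from 3.26 to 8.47 FPKM. Of 284 genes with ZNF symbols, 10 rose and 16 fell, shares of 3.52% and 5.63% beside 3.69% and 8.0% of all genes.

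By gene symbol alone, 107 stems had at least 10 genes. HIST had the highest share past 2-fold, 83.3% of 12, and CD the next, with 22 of 40 lower, none higher and a median of −1.10. Interleukin and interleukin receptor symbols (IL) had 4 of 12 lower, and GPR symbols 4 of 16 lower and 1 higher. TCR variable segments had 7 of 15 lower and none higher, several on few counts, such as TRAV19 with 43 and 5. Many stems held no gene past 2-fold, among them CDC, CDK, CEP, MED, RPS, SRSF, STX, THAP and VPS. By biotype, 2.93% of 9489 protein-coding genes rose and 7.83% fell, while 9.76% of 850 lncRNA genes rose and 11.1% fell.

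The deepest falls among protein-coding genes reached the counting floor. CST7 (cystatin F), an inhibitor of granule proteases, had 111 counts in DMSO+PHA and 0 in JQ1+PHA, at least 35-fold lower, and the keratin KRT1 202 and 0, at least 63.7-fold. SERPINB2, a plasminogen activator inhibitor, had 252 and 2, a log2 ratio of count shares of −6.90 with an interval from −9.95 to −5.03. ATP9A, a phospholipid flippase, read 5.15, 0.372, 28.1 and 1.05 FPKM in DMSO, JQ1, DMSO+PHA and JQ1+PHA, 26.8-fold lower with PHA on 4623 and 163 counts. TEAD1, a partner of YAP, was 1 of the larger rises shared by both pairs, at 0.709, 3.88, 0.576 and 3.88 FPKM. It was chosen after its values were seen.

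The pair without PHA shares no library with the stimulated pair, so it gives a second reading of JQ1 against DMSO, though in unstimulated cells. Of the 424 genes that rose, 386 lay above 0 there, and of the 920 that fell, 863 lay below. Their medians in the resting pair were 1.13 and −1.30, where all kept genes had −0.01. Both JQ1 libraries lay above both DMSO libraries for 376 of the 424 and below both for 847 of the 920. The call already fixes the order of JQ1+PHA and DMSO+PHA, so these counts are not a separate test. The same counts over all kept genes are not given here. For 41 of the genes that rose, DMSO+PHA alone was low, at least 2-fold below the other 3 libraries, which lay within 2-fold of each other. REST, a repressor of neuronal genes, was 1 of these at 6.31, 9.22, 0.581 and 9.53 FPKM. ZKSCAN1 (9.28, 16.9, 2.16 and 15) and TMOD2 (6.3, 7.21, 1.1 and 7.48) had the same form. These 3 are among the largest rises, and each rests on 1 low library. By the same measure JQ1+PHA alone was high for 10 of the genes that rose. Of the genes that fell, DMSO+PHA alone was high for 37 and JQ1+PHA alone low for 28.

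**Figure D5:**
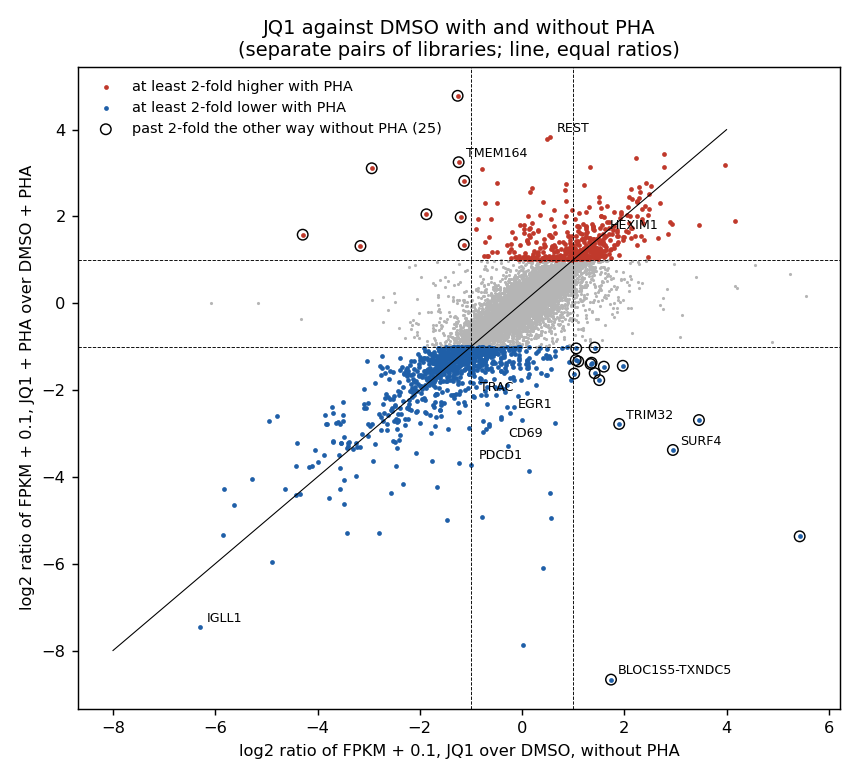
Log2 ratio of FPKM + 0.1 of JQ1 over DMSO without PHA against that with PHA for 11503 genes, the axes sharing no library. Most coloured genes lie on the same side of 0 in both, IGLL1 is low in both, CD69 and EGR1 are low with PHA alone, and 25 ringed genes pass 2-fold in opposite directions.

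Some of the largest ratios sit where genes overlap. BLOC1S5-TXNDC5, a readthrough gene, had 2424 counts in DMSO+PHA and 0 in JQ1+PHA while TXNDC5, which it contains, went from 163 to 1144. Their sum had a log2 ratio of −1.10. BIVM-ERCC5 had 1909 and 0 counts beside ERCC5 at 1399 and 2710, and the sum stood at −0.21. TOMM6 had 1243 and 15 beside PRICKLE4 at 168 and 671, with a sum of −0.96. ATP5J2-PTCD1 had 1 and 186 beside PTCD1 at 556 and 193, with a sum of −0.48. Of the genes that rose, 175 overlapped another gene with at least 20 counts and 15 had such a partner past 2-fold the other way, and of those that fell, 327 and 16. Values of these 31 genes are uncertain, because how the counting assigned shared reads and whether it used strand are not given in the sources used here.

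The 2-fold line divides a continuous range. BAG3 was among the last genes past it upward and RCOR2 among the first under it. CEBPA and RCSD1 had those places on the side of the falls. At a pseudocount of 1 the calls of JUN, NFAT5, FOXO1, BAG3, BCL2, BIK, IL7R, CD96 and CD247, among others, ended. The 5th and 95th percentiles of all ratios were −1.25 and 0.88.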

How the data were processed

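RNA-seq libraries of Jurkat cells were made with a VAHTS Universal V6 kit per the labels, or a stranded mRNA kit of the same maker per the methods, and sequenced on an Illumina HiSeq2500. Per the labels, reads were aligned to GRCh38; the protocol names Hisat2 2.0.4, whereas the submitters' processing notes name TopHat2 2.0.9 and Cufflinks 2.1.1. The authors deposited raw read counts and FPKM per gene in 1 file per library. The deposited FPKM equals counts per kilobase per total count with 1 length per gene, a relation checked on 12689 genes with at least 20 counts in each library (relative spread 4.65e-05). How overlapping genes and strand were counted is not given in the sources used here.

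Files were joined on gene ID in Python 3.11.15 with pandas 2.3.3. Ratios used a pseudocount of 0.1 FPKM, a mean of at least 1 FPKM and a 2-fold threshold. Clopper-Pearson 95% intervals of the ratio of count shares (scipy 1.17.1) cover counting error only. Any count under 3 was set to 3 counts for lower bounds of a fold, which is 0.152 to 0.161 CPM in these libraries. Biotypes, and the symbols used to match promoters, came from GENCODE 44, which lacked 119 of the kept genes. Overlaps used the gene positions deposited with the counts, and promoter strands came from RefSeq. Alternatives used edgeR 4.0.16 and DESeq2 1.42.0 scaling factors. The steps were tested on simulated data.

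The gene set and the 60 lists were chosen with earlier results of these data known. Genes named were the 12 largest rises and falls among protein-coding genes, the 8 most abundant past 2-fold each way, up to 6 members per list by size of ratio and those past 2-fold in opposite directions with and without PHA. ARPP21, BST2, CD1E, the CD3 chains, CDK6, DDX21, DNTT, FOXO1, GATA3, HIST1H2BK, HLA-B, HLA-C, JAK1, NFATC2, NFATC3, NFATC4, PAG1, RAG2, SQLE, TRAV19, the TCR beta and gamma constant genes, UBASH3B and ZAP70 were named outside that rule, after their values were seen. Some genes are not reported here.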

Additional observations from a re-analysis of the deposited data

Results flagged for a closer look

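Some genes passed 2-fold in opposite directions in the stimulated and the resting pair, and the 10 with the widest gap are given here; the difference between the pairs was not tested, as each condition is 1 library. SURF4, a cargo receptor of the endoplasmic reticulum, read 3.38, 26.9, 40.9 and 3.84 FPKM in DMSO, JQ1, DMSO+PHA and JQ1+PHA, a log2 ratio of −3.38 with PHA and 2.95 without. TRIM32, a ubiquitin ligase, had the same form at 0.544, 2.3, 3.77 and 0.464 FPKM (−2.78 and 1.90).

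DAG1 (dystroglycan) stood at 2.17, 0.153, 1.1 and 2.92 FPKM (1.32 and −3.16). TMEM164, a membrane protein, stood at 6.18, 2.56, 0.589 and 6.44 FPKM (3.25 and −1.24). BLOC1S5-TXNDC5 stood at −8.67 with PHA and 1.74 without, on 0, 14, 2424 and 0 counts, and ATP5J2-PTCD1 at 4.78 and −1.26, on 275, 116, 1 and 186. Both overlap a gene that moved the other way.

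The other 4 are noncoding or unnamed loci with at most 200 counts. CTD-2550O8.5 stood at −5.37 and 5.43 on 0, 48, 46 and 0 counts. CTC-260F20.3, which overlaps YJEFN3, stood at −2.69 and 3.46 on 14, 200, 191 and 25. RP1-40G4P.1 stood at 3.11 and −2.94 on 44, 5, 4 and 41, and RP11-311C24.1 at 1.58 and −4.29 on 93, 2, 5 and 20.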

How the results depend on the processing

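Against 424 genes higher and 920 lower, a pseudocount of 1 gave 225 and 529, a mean of at least 5 FPKM gave 143 and 324, no filter on low values gave 1575 and 2925, and a 4-fold threshold gave 60 and 199. Protein-coding genes alone gave 278 higher and 743 lower. Other settings moved the counts by less than 1.5 times: TMM scaling (492 and 843), DESeq2 size factors (502 and 831), centring on the median gene (449 and 887), requiring that the counting interval exclude 0 (412 and 902), leaving out genes with an overlapping partner past 2-fold the other way (409 and 904), and asking that both JQ1 libraries lie on the same side of both DMSO libraries (376 and 847, the last 2 chosen after seeing the data). TMM and DESeq2 moved the median gene by 0.05 and 0.06. Single genes were followed through the settings for a set of 129. It held the largest changes, the most abundant genes past 2-fold and genes fixed by name. It also held genes past 2-fold in opposite directions, genes next to the 2-fold line and members of some symbol stems. Genes described only as list members, such as CD69, EGR1 and TRAC, were not in this set. Of its 79 genes past 2-fold, 63 stayed past it the same way with a pseudocount of 1. The numbers were 76 with TMM, 76 with DESeq2 and 77 with centring, and none of the 129 reversed. Lower calls in ribosome biogenesis ranged from 30 to 35 of 96, those in activation molecules stayed at 12 of 14, and higher calls in histones ranged from 12 to 14 of 20. With a pseudocount of 1, calls ended for the following genes described above or below as higher: BAG3, DAG1, EIF4EBP2, ERCC5, FOXO1, JUN, MXD3, MYC, NFAT5, PPP1R15A, RP11-311C24.1, TIPARP and ULK1. As lower, they ended for ACACA, BCL2, BIK, CD247, CD96, CEBPA, EIF4EBP1, GIMAP5, HIST1H2BK, IL7R, MAFG, MFNG, POLR3G, PRMT5, SMAD6 and SPRY2. Lower calls went from 4 to 1 among polymerase subunits, from 3 to 0 among Notch genes, from 2 to 0 in the BCL2 family and from 7 to 4 among amino acid transporters. TMM and DESeq2 ended the calls of CD247, CEBPA, GIMAP5, NPM1P27, PRMT5 and TPM4.

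No paired analysis was possible because each condition is 1 library, and leaving out a library was not run for the same reason. The spread between cultures is unknown, and the intervals do not hold it.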

Other observations

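Lists tied to energy and housekeeping differed little between JQ1+PHA and DMSO+PHA. Of 80 nuclear-encoded respiratory chain genes 2 were lower, of 32 glycolysis and pentose phosphate genes 1, and of 34 mitochondrial carriers none, with no gene higher in these lists. In the TCA cycle 2 of 27 were lower and OGDH, a subunit of the 2-oxoglutarate dehydrogenase complex, rose from 17.6 to 36.7 FPKM. The 13 genes of the mitochondrial genome had a median of 0.21. Mitochondrial ribosomal proteins were lower in 5 of 77 and higher in 1 (median −0.47), and translation factors in 3 of 59 and 1. EIF4EBP1, a repressor of cap-dependent translation, fell from 6.68 to 3.15 FPKM while its relative EIF4EBP2 rose from 45.3 to 91.1. Proteasome genes were lower in 3 of 48, led by PSME3 (14.2 to 5.09 FPKM), and the lysosome and autophagy list had 2 of 57 higher and 3 lower, with ULK1, which starts autophagy, from 3.89 to 8.01 FPKM.

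Developmental and chromatin lists had few members past 2-fold. Of all genes, 3.69% were higher and 8.0% lower. The TAL1 circuit of T-cell leukaemia had 2 of 14 lower (14.3%) and none higher. ALDH1A2, a retinoic acid enzyme, went from 25.3 to 3.76 FPKM and MYB from 31.4 to 14.3, while TAL1 stood at 23.8 and 18. Notch genes had 3 of 21 lower (14.3%) and 1 higher (4.76%), HES4 going from 2.7 to 7.6 FPKM and MFNG from 4.08 to 1.66. In the TGF-beta list SMAD6, an inhibitory SMAD, fell from 2.84 to 1.15 FPKM, the 1 call of 17. Histone modifiers had 2 of 55 higher and 2 lower, with the arginine methyltransferase PRMT5 from 15.3 to 7.32 FPKM, and Polycomb and DNA methylation genes 1 of 40 lower. DNA repair had 3 of 71 each way. Cytoskeletal genes had 4 of 71 higher (5.63%) and 7 lower (9.86%). TPM4, a tropomyosin, read 28.1, 25.5, 56.4 and 27.6 FPKM in DMSO, JQ1, DMSO+PHA and JQ1+PHA. SPRED2 and SPRY2, which damp RAS signalling, fell from 7.7 to 2.55 and from 2.45 to 0.818 FPKM, beside 1 of 11 higher and 3 lower in their list. HLA-DRB1 was the 1 of 5 MHC class II genes that fell, from 3.78 to 0.96 FPKM.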
